A study of Mus musculus with 4 samples.

Results

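The genes described here make cholesterol in the liver or answer to SREBP2, the transcription factor that controls cholesterol supply. They were chosen by name: a gene was included when a non-control probe on the arrays carried its gene symbol, and the brightest probe (the highest mean log2 signal over the 4 arrays) stood for the gene. Of the 29 genes named, 28 had a probe under that name, among 37021 genes on the arrays, and together they had 63 probes. Acat2 had no probe under that name and is given no value here. In 27 of the 28 genes the probe was well above background on all 4 arrays, and Npc1l1 was below that mark in AAI-treated males only. The choice of genes by name uses no measured value, while the brightest probe was chosen by its signal. The genes were listed with earlier results of these data known.

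Liver RNA was measured in C57BL/6 wild-type mice, which were 6 weeks old, after aristolochic acid I (AAI), a plant nephrotoxin, or its vehicle. Each animal was injected intraperitoneally 5 days per week for 3 weeks. Female mice received AAI at 5 mg/kg/day, male mice received 2 mg/kg/day, and the control mice of each sex received corn oil. Each of the 4 groups is 1 single-colour array, on which equal amounts of RNA from the livers of 5 mice were mixed. There is therefore no spread between animals in these data, no test between groups was possible, and every ratio compares 1 pool with another. The precision is limited by the number of arrays. The only errors available are technical. The spot error of the scanner software gives a log2 ratio of a bright probe an error of 0.20. This spot error was 0.14 on each array for nearly all bright probes of the sterol genes, each with 1 spot. It therefore does not measure a spread between spots. Different probes of 1 gene differed by a median SD of 0.25 in females (9128 genes) and of 0.24 in males (8618 genes). Sex and dose cannot be told apart, because the AAI-treated females and males received different doses. In whole liver, fewer cells of a type and less RNA per cell cannot be told apart either.

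The makeup of the tissue was followed with marker genes, since every ratio below is of whole liver. All 10 hepatocyte markers, albumin among them, were well above background on each array, and their median log2 ratio was 0.06 for females, 0.18 for males. Markers of other tissues moved with treatment. The 12 skeletal muscle markers had a summed signal of 48241 in AAI-treated females against 1333 in corn oil-treated females and of 384473 against 5967 in males, and 11 of 12 in females and 12 of 12 in males were at least 2-fold higher. Fat markers (11 genes) had sums of 9239 against 5308 in females and 131563 against 22021 in males, with 4 of the 10 compared and 8 of 11 at least 2-fold higher. In males, 7 of 11 adrenal cortex markers were also at least 2-fold higher (sum 101948 against 45533), and in females none of the 10 compared (39002 against 40604). The adrenal cortex makes steroid hormones from cholesterol. Of 9 adrenal medulla markers, 4 were at least 2-fold higher in males (sum 22368 against 12869), with Chgb at a log2 ratio of 7.79 and Chga at 3.84, and in females none of the 8 compared was (12869 against 17297). Other members of these lists were at least 2-fold lower. In males these were Elovl3 (fat, log2 ratio -5.71), Mc2r (adrenal cortex, -2.07) and Ddc (adrenal medulla, -1.19). In females it was Phox2a (adrenal medulla, -1.39), which was not well above background after AAI. Pancreas markers had median log2 ratios of 0.25 for females and 0.19 for males. The part of these tissues in the ratios of the sterol genes was not tested.

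Cholesterol is built from acetyl-CoA through mevalonate, isoprenoid diphosphates, squalene and lanosterol. When sterols in the endoplasmic reticulum run low, SCAP escorts SREBP2 to the Golgi, where proteases release the part that enters the nucleus and switches on genes for almost every enzyme of the route. When sterols are plentiful, INSIG proteins hold SCAP and SREBP2 back, and the liver is the main organ that balances this synthesis against dietary supply and bile.

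The DNA before these genes is where SREBP2 and its partners act. SREBP proteins bind sterol elements, and NF-Y, a common partner, binds the CCAAT box. Reference sequence from RefSeq on build GRCm38.p6 covered the start of 24 of the 29 genes, in 30 windows, since 4 genes have several starts. Fdft1, Fdps, Sqle, Stard4 and Fads1 were not searched. The 250 bases before each start were searched on both strands, and a gene was counted when any of its windows held the motif. CCAAT was found in 20 of 24 genes (83.3%), against 37.5% of 27025 genes and 39.5% of 17492 protein-coding genes. The GC box GGGCGG was found in 21 of 24 (87.5%), against 35.4% of all and 45.8% of protein-coding genes. A sterol element written as TCACNCCAC was found in 1 gene, Hmgcs1, against 1.22% of all genes, and the shorter TCACNCCA, which is contained in it, in Hmgcs1, Msmo1 and Srebf2 (12.5%, against 4.03% of protein-coding genes). SREBP sites vary widely in their letters, and a match is a description of the sequence, not of binding.

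The windows below are those of the genes on which the results turn. Hmgcs1 was chosen after its motif was seen, because it alone among the genes searched holds the longer sterol element, TCACNCCAC. The others are Nsdhl and Acss2, which were at least 2-fold higher in both sexes, and the paired sensors Insig1 and Insig2. For Insig2 only the window that holds CCAAT is shown, out of its 3. Capitals mark CCAAT, which reads ATTGG when it lies on the opposite strand, and, in Hmgcs1, the sterol element.
Hmgcs1, chr13:119690101-119690350, plus strand: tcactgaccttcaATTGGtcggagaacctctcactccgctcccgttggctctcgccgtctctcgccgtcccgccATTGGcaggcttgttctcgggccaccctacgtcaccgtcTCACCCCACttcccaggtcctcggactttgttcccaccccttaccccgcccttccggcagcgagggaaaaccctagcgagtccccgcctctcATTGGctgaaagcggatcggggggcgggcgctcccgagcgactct
Nsdhl, chrX:72918271-72918520, plus strand: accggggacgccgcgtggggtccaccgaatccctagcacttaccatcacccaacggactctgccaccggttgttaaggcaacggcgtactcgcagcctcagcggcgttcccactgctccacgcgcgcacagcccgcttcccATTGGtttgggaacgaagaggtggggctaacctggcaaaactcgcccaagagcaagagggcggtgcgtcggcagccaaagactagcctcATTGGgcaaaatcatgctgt
Acss2, chr2:155517793-155518042, plus strand: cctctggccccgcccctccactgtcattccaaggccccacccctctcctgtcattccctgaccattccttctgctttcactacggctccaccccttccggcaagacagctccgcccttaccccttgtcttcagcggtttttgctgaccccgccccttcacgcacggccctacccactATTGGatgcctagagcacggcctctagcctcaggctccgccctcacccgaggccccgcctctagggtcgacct
Insig1, chr5:28071162-28071411, plus strand: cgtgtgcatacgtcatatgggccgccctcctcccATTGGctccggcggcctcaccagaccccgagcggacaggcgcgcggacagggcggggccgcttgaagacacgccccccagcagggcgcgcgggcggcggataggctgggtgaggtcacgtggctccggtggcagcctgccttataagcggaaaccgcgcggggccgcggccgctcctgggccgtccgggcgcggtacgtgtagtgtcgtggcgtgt
Insig2, chr1:121332590-121332839, minus strand: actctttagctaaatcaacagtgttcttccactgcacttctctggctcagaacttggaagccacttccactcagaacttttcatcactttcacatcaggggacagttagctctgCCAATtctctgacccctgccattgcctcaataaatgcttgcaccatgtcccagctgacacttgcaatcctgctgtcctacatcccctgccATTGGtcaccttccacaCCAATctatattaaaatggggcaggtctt
In Hmgcs1 the sterol element lies 137 to 129 bases before the start, between CCAAT boxes at 176 to 172 and at 45 to 41 bases, and a further one lies at 237 to 233. Nsdhl holds 2 CCAAT boxes, which begin 109 and 20 bases before the start. Single boxes of Acss2 and Insig1 begin at 73 and 216 bases, and those of the Insig2 window at 136, 46 and 29.

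**Figure D1:**
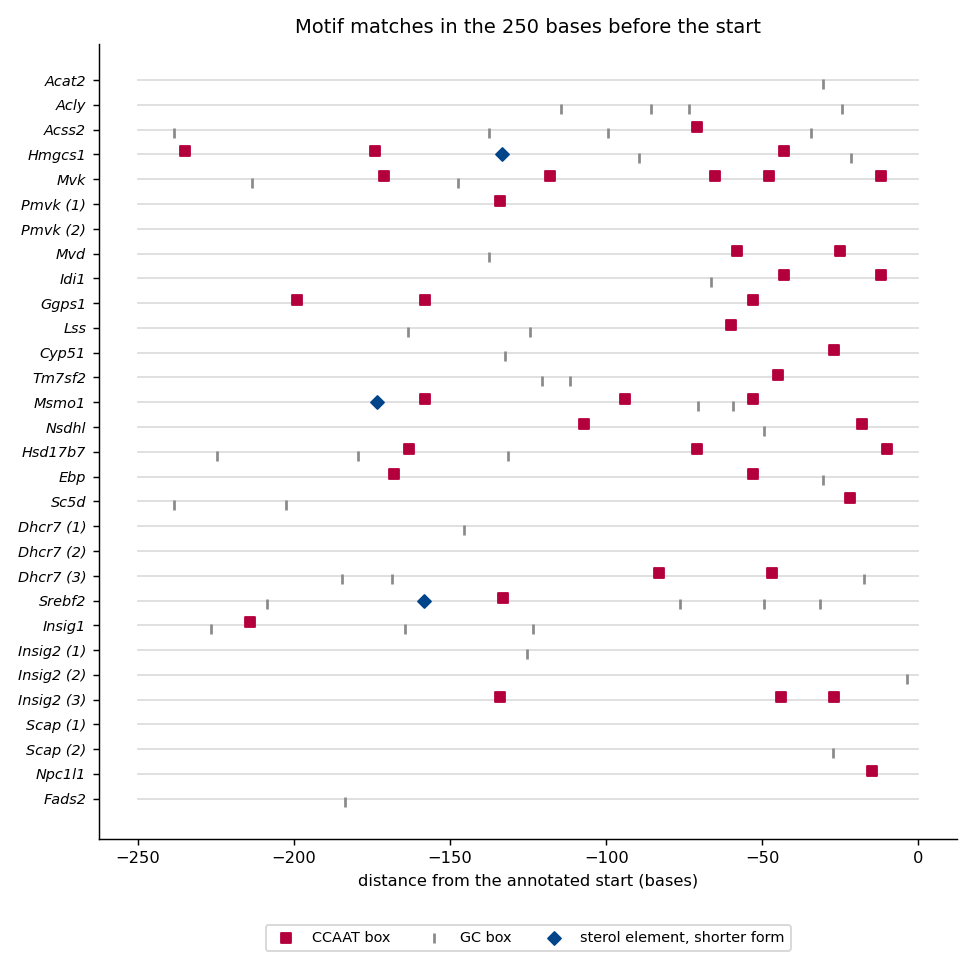
Positions of motif matches in the 250 bases before the annotated start, for 30 windows of 24 genes. The x axis is the distance from the start in bases, squares are CCAAT boxes, bars GC boxes and diamonds the shorter sterol element, and numbers in brackets tell the windows of 1 gene apart. CCAAT lies in at least 1 window of 20 genes and the diamond in 3.

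In females, 7 of the 28 genes were at least 2-fold higher in AAI-treated than in corn oil-treated mice (1.37% of the 31682 genes compared) and none was at least 2-fold lower (3.09%). They were Nsdhl, Mvd, Cyp51, Idi1, Lss, Mvk and Acss2. At 1.5-fold the counts were 13 higher (7.81%) and 3 lower (9.95%), and 23 of 28 had a ratio above 0 (53.5%). In males, 4 were at least 2-fold higher (3.51%), namely Fdps, Nsdhl, Acss2 and Pmvk, and none was at least 2-fold lower (4.59%). At 1.5-fold 6 were higher (9.9%) and 1 lower (11%), and 20 of the 27 measured on both male arrays were above 0 (51.8%). The genes had median log2 ratios of 0.50 (females) and 0.38 (males), against 0.04 and 0.02 over all genes.

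**Figure D2:**
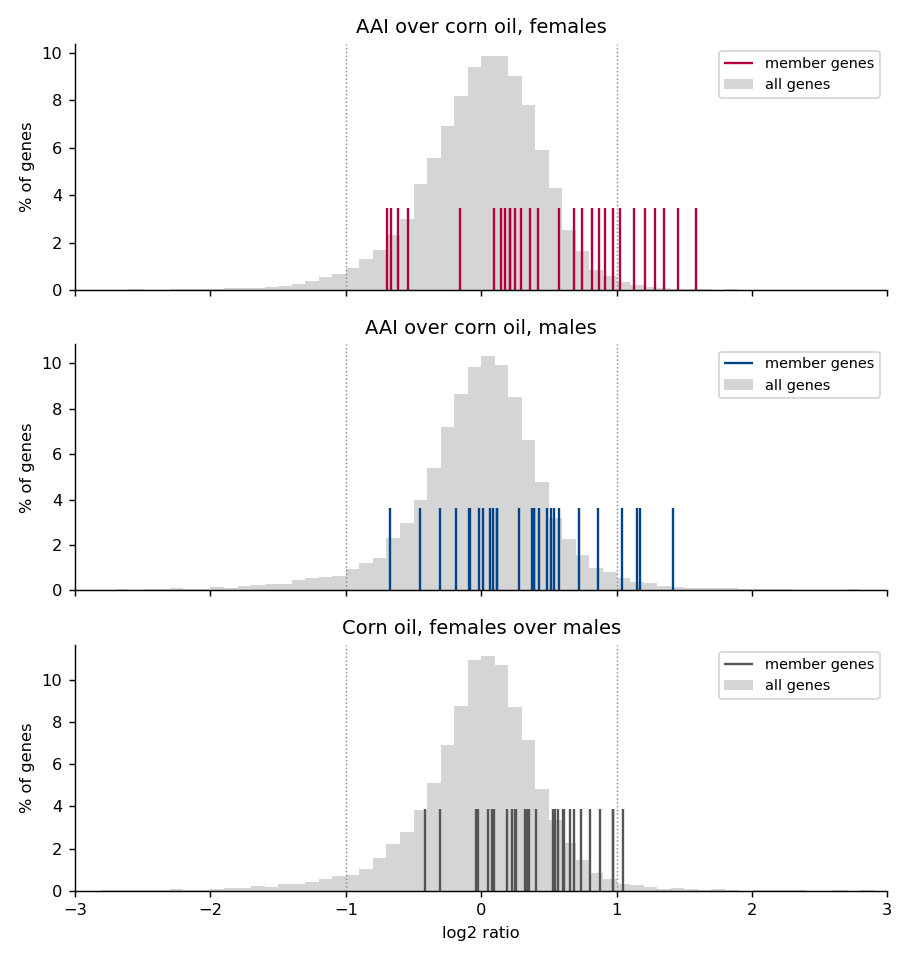
Log2 ratios of the sterol genes (coloured lines) over the distribution of all genes well above background on both arrays (grey bars, percent of genes in each bin of 0.1), for AAI over corn oil in each sex and for females over males among corn oil-treated mice. Dotted lines mark 2-fold, which 7, 4 and 1 of the sterol genes pass on the right and none passes on the left.

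Acetyl-CoA is supplied to the cytosol by ATP citrate lyase, from citrate, and by the acetyl-CoA synthetase Acss2, from acetate. Acss2 (chr2:155388385-155388444 on mm9, the build of the array annotation) had a log2 signal of 12.43 after corn oil and 13.46 after AAI in females, and of 11.77 after corn oil and 12.92 after AAI in males. All levels that follow are log2 signals in this order, corn oil before AAI. Both AAI-treated pools lay above both corn oil-treated pools, and within each sex the ratio was 2.03-fold in females and 2.22-fold in males. A second probe to the same transcript gave log2 ratios of 1.17 and 1.03. The dim probes to another transcript disagreed. One had a log2 ratio of -0.70 in females. The other had 0.60 in females and 0.80 in males, but was not well above background after corn oil in either sex. With the probes well above background averaged, the female log2 ratio was 0.50. Acly, the lyase, had 13.47 and 13.57 in females and 13.24 and 12.79 in males, so that its male ratio of -0.45 was below 0 and its female ratio of 0.10 was within the technical error. A much dimmer Acly probe gave log2 ratios of 0.05 in females and -0.05 in males.

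The 5 enzymes that lead from acetoacetyl-CoA through mevalonate to isopentenyl units were all at least 1.5-fold higher in AAI-treated females (7.81% of all genes). Their median log2 ratio there was 1.13. In males 4 of the 5 were above 0 (51.8%), and the median was 0.57. Hmgcs1, the synthase that makes HMG-CoA, had 14.64 and 15.45 in females and 14.06 and 13.98 in males. Its female pair differed by 1.76-fold, and the male pair by less than the technical error. Mvk, mevalonate kinase, had 12.08 and 13.20 in females and 11.34 and 12.06 in males, and the AAI-treated males were level with the corn oil-treated females. Its second probe gave log2 ratios of 1.18 and 1.05. Pmvk, the next kinase, had 13.98 and 14.67 in females and 12.94 and 13.98 in males.

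Pmvk thus had the higher ratio in males, 2.06-fold against 1.61-fold in females. The second Pmvk probe kept this order, with log2 ratios of 1.17 in males and 0.76 in females. Mvd, the decarboxylase that yields isopentenyl diphosphate, was measured by a single probe and had 8.98 and 10.44 in females and 8.64 and 9.22 in males. It had the second highest female ratio of the 28 genes, 2.74-fold. Idi1, the isomerase that prepares the units for joining, had 13.81 and 15.09 in females and 13.41 and 13.89 in males, or 2.44-fold and 1.40-fold.

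The prenyl diphosphate synthases branch here, and they did not move together. Fdps joins the units into farnesyl diphosphate, the last intermediate shared by sterols and other isoprenoids. Its only probe (chr3:88897549-88897608, mm9) had 14.10 and 14.25 in females and 13.13 and 14.54 in males. Its male ratio of 2.66-fold was the highest of the 28 genes in males, while the female ratio of 1.11-fold was within the technical error. The female log2 ratio minus the male one was -1.26, with a technical error of 0.29, the widest gap of the 28 genes. On the AAI-treated male array the muscle, fat and adrenal markers also had higher summed signals than after corn oil. Their part in the Fdps ratio was not tested. Fdps has no second probe to set beside the first. Ggps1, which makes geranylgeranyl diphosphate for proteins and not for sterols, had 8.77 and 8.23 in females and 8.80 and 8.87 in males. All 6 Ggps1 probes were lower in AAI-treated females, with log2 ratios from -0.68 to -0.37, and in males they lay on both sides of 0, from -0.17 to 0.49.

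The steps to squalene and lanosterol commit the pathway to sterols. Fdft1, squalene synthase, had 13.41 and 14.38 in females and 12.88 and 13.40 in males. Its ratios were 1.96-fold and 1.43-fold, and the second probe gave log2 ratios of 1.24 and 0.62. Sqle, squalene epoxidase, had 11.79 and 12.37 in females and 11.47 and 11.74 in males. Another Sqle probe, dimmer and to another transcript, gave 0.55 in females and -0.49 in males, so the male direction depends on the probe. Lss, which closes the rings to lanosterol, had 11.28 and 12.49 in females and 10.31 and 10.74 in males. All 3 Lss probes were higher after AAI in both sexes, with female log2 ratios from 1.21 to 1.81 and male ones from 0.43 to 1.11.

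**Figure D3:**
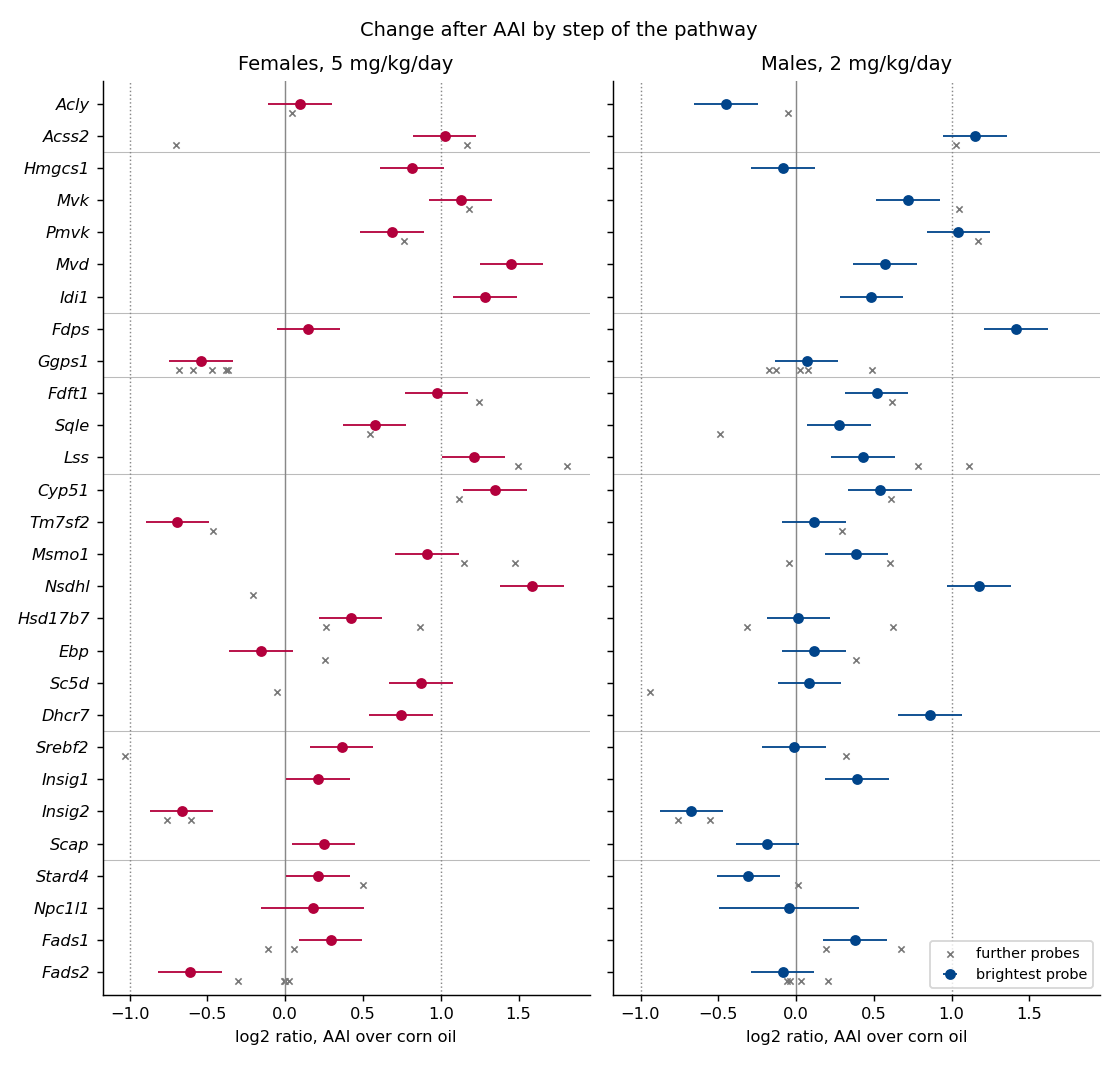
Log2 ratio of AAI over corn oil for 28 genes in the order of the pathway, females on the left and males on the right. Points are the brightest probe with its technical error (1 array a group, so no error between animals), crosses are further probes well above background on both arrays, and dotted lines mark 2-fold; in females 13 points lie at or above 1.5-fold and 3 at or below it in the other direction.

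From lanosterol to cholesterol, 8 genes were measured. In females 5 of them were at least 1.5-fold higher (7.81% of all genes) and 1 was lower (9.95%). In males 2 were higher (9.9%) and all 8 had a ratio above 0 (51.8%). The male log2 ratios of Hsd17b7 (0.015), Sc5d (0.085), Tm7sf2 (0.11) and Ebp (0.12) were within the technical error. Those of Hsd17b7, Sc5d and Tm7sf2 fell below 0 under at least 1 alternative of processing. Nsdhl, one of the enzymes that remove the methyl groups at carbon C-4, had 10.72 and 12.31 in females and 10.11 and 11.29 in males at chrX:70203236-70203295 (mm9). These ratios, 3.00-fold and 2.26-fold, were the highest of the 28 genes in females and the second in males. A dim Nsdhl probe to another transcript gave -0.21 in females and was not well above background in AAI-treated males, and averaging it in brought the female log2 ratio to 0.69. Cyp51, the lanosterol demethylase, had 11.91 and 13.26 in females and 11.83 and 12.37 in males, and both of its probes were higher in both sexes. Msmo1, which starts the removal of the C-4 methyl groups, had 14.40 and 15.31 in females and 14.04 and 14.43 in males. A further Msmo1 probe gave log2 ratios of 1.15 in females and 0.60 in males. A dim one gave 1.47 and -0.04, and with the probes averaged the female log2 ratio was 1.18.

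Msmo1 and Nsdhl act one after the other, and Hsd17b7 follows them. Hsd17b7 had 11.78 and 12.20 in females and 11.82 and 11.83 in males. Its 2 further probes gave female log2 ratios of 0.26 and 0.87 and male ones of -0.32 and 0.62. Sc5d, a late desaturase, had 13.66 and 14.53 in females and 13.40 and 13.48 in males. A further Sc5d probe, to a predicted transcript, gave -0.05 and -0.94, so for this gene the probes disagreed in both sexes. Dhcr7, which makes cholesterol from 7-dehydrocholesterol, had 9.84 and 10.58 in females and 8.96 and 9.82 in males. Its ratios were close in the sexes, 1.68-fold and 1.82-fold.

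Tm7sf2 and Ebp were the enzymes of this stretch with female ratios below 0 by their brightest probes. Tm7sf2, a sterol reductase of the nuclear and endoplasmic reticulum membranes, had 14.52 and 13.83 in females and 14.27 and 14.38 in males. Both Tm7sf2 probes were lower in AAI-treated females, with log2 ratios of -0.69 and -0.46, and higher in AAI-treated males, with 0.11 and 0.30. Ebp, the sterol isomerase, had 15.57 and 15.42 in females and 15.38 and 15.50 in males, and both ratios were within the technical error. The second Ebp probe gave log2 ratios of 0.26 in females and 0.38 in males, so its female direction depends on the probe.

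The regulators did not move in 1 direction, and none of the 4 passed 2-fold in either sex. Srebf2, the gene of SREBP2, had 11.69 and 12.05 in females and 11.64 and 11.63 in males. A dim second probe went the other way in each sex, with log2 ratios of -1.03 and 0.32. Scap, measured by a single probe, had 12.75 in corn oil-treated females with a log2 ratio of 0.25, and 13.17 and 12.98 in males. Both of these genes thus lay within 1.29-fold in each sex by their brightest probe.

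The INSIG genes differed from each other. Insig1, itself a target of SREBP2, had 10.10 and 10.31 in females and 9.56 and 9.95 in males, or 1.16-fold and 1.31-fold higher. Insig2 (chr1:123201085-123201144, mm9) had 14.53 and 13.86 in females and 13.72 and 13.05 in males. It was 1.59-fold lower after AAI in each sex, and all 3 of its probes gave log2 ratios from -0.76 to -0.55 over both sexes. Insig2 was the only one of the 28 genes at least 1.5-fold lower in males, and the only one lower by that much in both sexes (2.48% of 30115 genes). None of the 28 was at least 2-fold lower in both (0.628%).

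Among targets outside the pathway the ratios were small. Stard4, which carries cholesterol between membranes, had 10.87 and 11.08 in females and 11.18 and 10.87 in males, and a dimmer probe gave log2 ratios of 0.50 and 0.02. Npc1l1, the sterol uptake protein that ezetimibe blocks, was close to background, with 4.84 and 5.02 in females and 4.75 in corn oil-treated males. In AAI-treated males it was not well above background. Fads1 and Fads2 desaturate polyunsaturated fatty acids and lie side by side in the genome. Fads1 had 11.92 and 12.22 in females and 11.31 and 11.69 in males. Its dimmer probes gave log2 ratios of 0.06 and -0.11 in females and of 0.19 and 0.68 in males. Fads2 had 12.05 and 11.44 in females and 11.37 and 11.28 in males. Its lower female value was weaker on its 4 further probes, which gave log2 ratios from -0.31 to 0.03.

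**Figure D4:**
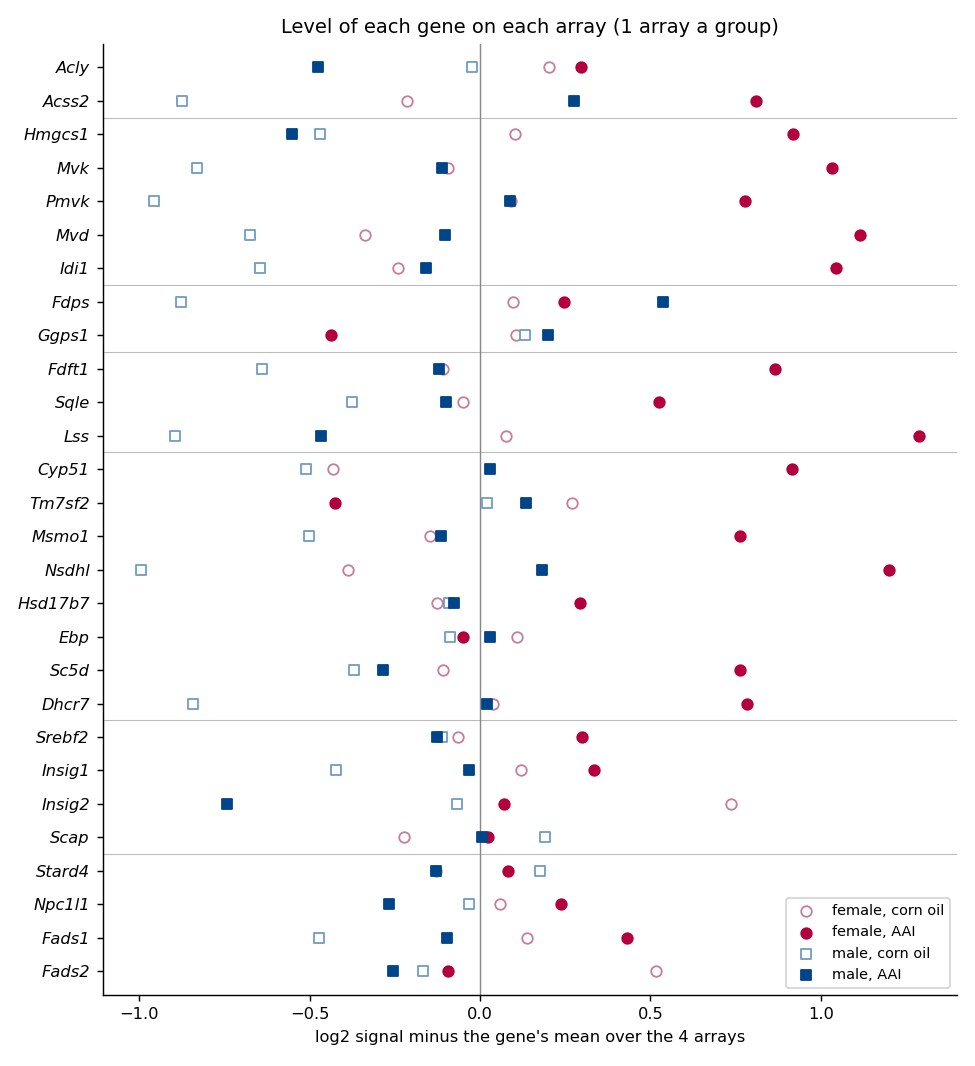
Level of each of the 28 genes on each array, as log2 signal minus the mean of that gene over the 4 arrays, in the order of the pathway. Filled symbols are AAI-treated, open symbols corn oil-treated, circles females and squares males, and each symbol is 1 array; the AAI-treated females are the highest point in 20 genes and the corn oil-treated males the lowest in 17.

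The order of the 4 arrays varied from gene to gene. AAI-treated females had the highest level in 20 of 28 genes (34.4% of 32106 genes well above background on at least 1 array), and corn oil-treated males the lowest in 17 (32.7%). The order AAI-treated females, corn oil-treated females, AAI-treated males, corn oil-treated males was the most frequent, in 9 genes (7.77%), among them Pmvk, Lss, Fdft1 and Dhcr7. A further 6 genes, namely Acss2, Mvd, Idi1, Cyp51, Msmo1 and Nsdhl, had the same ends with AAI-treated males above corn oil-treated females (10.1%). Including these, AAI-treated males stood above corn oil-treated females in 10 of the 28 (48.4%). For Msmo1, among the 6, the levels were 14.43 and 14.40, also closer than that error. With Fdps and Hsd17b7 added to the 6, both AAI-treated pools stood above both corn oil-treated pools in 8 of the 28 genes, which is near the 22.4% of all genes above background on at least 1 array.

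The genes that were high in 1 sex were partly those that were high in the other. Nsdhl and Acss2 were at least 2-fold higher in both (0.491% of 30115 genes). The female Acss2 value fell below 2-fold with 75th percentile scaling (log2 ratio 0.96), a model-based background correction, normexp (0.97), no correction of trends across the array (0.99) and probe averaging (0.50), and with probe averaging Nsdhl did too (0.69), which left no gene past 2-fold in both sexes there. At 1.5-fold 5 genes were higher in both (1.77%), and 17 were above 0 in both (32.1%). Over the 27 genes measured on all arrays, Pearson's r between the female and male log2 ratios was 0.562 and Spearman's rho 0.623, and over 28234 genes they were 0.325 and 0.231. These correlations run across genes, which are not independent replicates, and the 4 arrays were normalised together.

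Most of these genes were higher in females without AAI as well. Among corn oil-treated mice, 24 of 28 genes were higher in females (52.5% of all genes), and the median female minus male log2 difference was 0.38 (0.02 over all genes). With each array scaled to its 75th percentile this median was 0.59 (0.09 over all genes), and 4 genes in place of 1 passed 2-fold. At 1.5-fold 10 were higher (7.95%) and none was lower (10%), and at 2-fold 1 was higher, Pmvk, at 2.07-fold (1.86%), and none lower (3.83%). Fdps and Lss came next, at 1.96-fold each, followed by Dhcr7 at 1.84-fold, Insig2 at 1.75-fold and Mvk at 1.67-fold. Scap (-0.41) and Stard4 (-0.31) had the lowest log2 differences, below 0 in both cases. In the same comparison the muscle, fat and adrenal cortex markers had median log2 differences of -2.34, -1.67 and -1.10, lower in females. This comparison shares its arrays with those of AAI, so a high corn oil-treated value lowers the AAI ratio of that sex and changes the sex difference at once.

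Neighbouring pathways were set beside the sterol genes. The 17 enzymes from Hmgcs1 to Dhcr7, with the side branch Ggps1 left out, had medians on the log2 scale of 0.87 for females and 0.48 for males. At least 2-fold higher were 6 of these enzymes in females (1.37% of all genes), 3 in males (3.51%). The 13 genes of SREBP1 and fatty acid synthesis had medians of 0.15 and 0.24, with none and 1 at least 2-fold higher, the latter being Thrsp, a lipogenic protein, with a male log2 ratio of 1.28. Next in size came Acsl5, a fatty acid-CoA ligase, with 0.89 in females and -0.24 in males, and Pnpla3, a lipid droplet protein, with 0.56 and 0.88. Srebf1, the gene of SREBP1, was picked out after its values were seen and had 0.77 and 0.70. The 14 genes of LXR and sterol efflux, which remove or store sterols, had medians of 0.02 and 0.08. Their one 2-fold value was Abca1, the cholesterol exporter, with -1.02 in males and 0.25 in females. The 13 genes that use isoprenoids for dolichol, ubiquinone or protein anchors had medians of 0.21 and -0.02, and the 13 genes of SREBP processing and sterol-regulated degradation had -0.09 and -0.21, with no gene past 2-fold in either list.

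**Figure D5:**
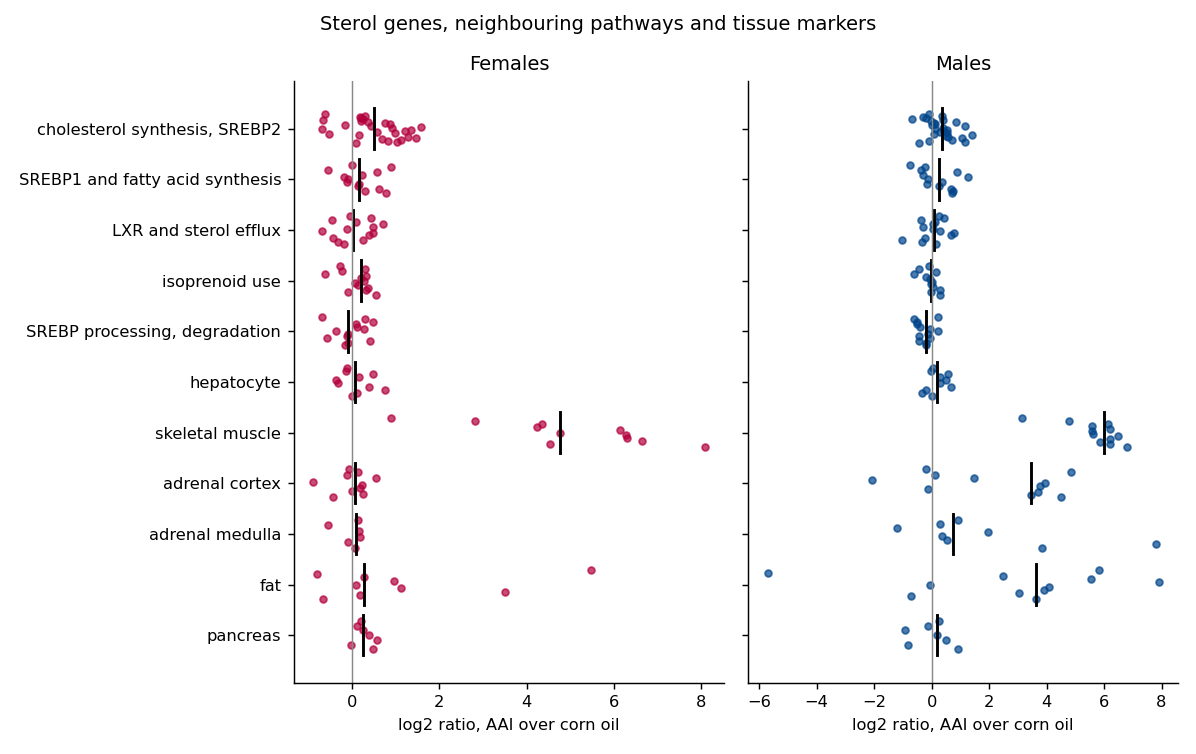
Log2 ratio of AAI over corn oil for the sterol genes, 4 neighbouring pathways and 6 lists of tissue markers, females on the left and males on the right. Each point is 1 gene well above background on both arrays and black bars are the medians; the sterol genes have the highest median of the 5 pathways in both sexes, and the muscle markers have the highest median of all lists.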

How the data were processed

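Total liver RNA of 4 groups (5 mice pooled per group) was labelled with Cy3 and hybridised by the authors to 8 x 60K mouse arrays. The deposited scanner files hold linear intensity per spot from Feature Extraction 10.5.1.1, after background subtraction and trend correction by the authors, and were not normalised between arrays. A deposited series table gives raw and quantile-normalised intensity per probe. Its raw column was within 1% of the scanner signal for at least 99.9% of probes. The files of 2 arrays are saved with 3 significant digits, so some levels repeat, and 70 gene names that read as dates there were taken from the other files.

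Groups were taken from the labels. Control spots and 70 to 234 outlier spots per array were left out. The log2 processed signals were averaged per probe and quantile normalised over the 4 arrays as the methods describe (56495 of 56605 probes; limma 3.58.1 in R 4.3.3, Python 3.11.15). Median processed signals were 110 to 129, 74.6% to 81.4% of probes were well above background, and no spot of the sterol genes was saturated, marked as an outlier or replaced by background. A gene entered a comparison if the scanner software marked its brightest probe well above background on either array. Where the other array was dimmer, the ratio was a lower bound set from the lowest signal above background. Genes with an absolute log2 ratio of at least 1 were counted. All 29 genes were named by rule. The scripts were checked on simulated arrays. Probe coordinates are those of mm9 in the files, and promoter windows are of GRCm38.p6 and were not mixed with them. The genes, lists and rules were chosen with earlier results of these data known. For other lists, values were given for at most the 3 genes with the largest change. Exceptions were Srebf1, picked after its values were seen, and the tissue markers that were at least 2-fold lower. Alternatives covered scaling, background, trend correction, the authors' values, the dim filter, probe averaging, replaced spots and thresholds of 1.5-fold and 3-fold.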

Additional observations from a re-analysis of the deposited data

Results flagged for a closer look

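In 6 of the 27 genes measured on all arrays the AAI-treated pool was above its control in one sex and below it in the other, with at least one of the ratios larger than the usual difference between probes of a gene (31% of 28234 genes). In each of these genes but Stard4, one of both values lies within the technical error of 0.20. The difference between the sexes was not tested, since each group is 1 array, and sex and dose cannot be told apart. Hmgcs1 had log2 ratios of 0.82 in females and -0.085 in males. Srebf2 had 0.36 and -0.013, and its dimmer probe had the opposite signs. Acly had 0.10 in females and -0.45 in males, and Stard4 had 0.21 and -0.31. In Ggps1 the values were -0.54 in females and 0.067 in males, and in Tm7sf2 they were -0.69 and 0.11. The second Tm7sf2 probe had the same signs, with -0.46 and 0.30. The male sign turned under an alternative in Hmgcs1 (0.055 with 75th percentile scaling), Srebf2 (0.042 with the same scaling, 0.15 with probe averaging) and Tm7sf2 (-0.0033 with normexp), and the female sign of Srebf2 turned with probe averaging.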

How the results depend on the processing

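With the threshold at 1.5-fold, 13 genes were higher and 3 lower in females, 1 was lower in males, and 10 differed between the sexes among corn oil-treated mice. At 3-fold these became 1 higher in females (Nsdhl, at 3.00-fold), 0 higher in males and 0 between the sexes. Scaling each array to its 75th percentile gave 4 genes past 2-fold between corn oil-treated females and males in place of 1, and the mean over all probes gave 2. Under the alternatives of processing the median log2 ratio ranged from 0.45 to 0.50 in females and from 0.31 to 0.40 in males, and the corn oil sex difference from 0.35 to 0.59, the highest with the 75th percentile. The genes at least 2-fold higher in both sexes were 2 as reported, 1 (Nsdhl) with 75th percentile scaling, normexp or no trend correction, and 0 with probe averaging. Averaging all probes turned the male ratio of Sqle to -0.11 and the female ratio of Srebf2 to -0.33. Of 392 values of single genes under alternatives, 382 stayed within the spread between probes. Another 8 moved further, all with probe averaging, and the 2 above reversed. Among the 8 was the male log2 ratio of Sc5d, which went from 0.085 to -0.43. Values near 0 included, the sign changed under at least 1 alternative in 2 genes in females and in 7 in males. The cause was not tested. No paired analysis was possible because each group is 1 array and the labels carry no replicate numbers, and for the same reason no array could be left out. The only low-signal gene was Npc1l1.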
